A study of Mus musculus with 17 samples.

Results

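The 9 genes described here are transcripts of the B lineage measured in RNA-seq libraries of mouse CD8 T cells. They are Cd79a, Cd79b, Cd74, H2-Aa, Ms4a1, Blnk, Bank1, Ebf1 and Pax5, chosen by symbol, and they are 9 of the 24594 genes in each table. The CD8 T cells came from spleen and are labelled as Thy1.1 positive, a congenic marker, and the series title places them in a study of clonal hematopoiesis regulators and CD8 T cell stemness during immunotherapy. There were 4 Asxl1 KO libraries, 4 Dnmt3a KO libraries, 4 Tet2 KO libraries and, as the control, 5 Rosa KO libraries. Asxl1 is a chromatin regulator of the Polycomb deubiquitinase complex, Dnmt3a a de novo DNA methyltransferase and Tet2 an oxidase of methylated cytosine. Rosa26 is a locus often targeted as a neutral control, although the labels do not spell out what Rosa KO is. All 4 groups share the Thy1.1 marker and a targeted locus. Age, strain, treatment and the way the knockouts were made are not stated in the labels. Nothing there says that libraries of a group came from separate animals, so p-values measure a spread among libraries that may be only technical.

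The library numbers in the labels fall into 3 separate blocks, called runs here, which the labels do not call batches. Run 1 held Asxl1 KO 1, Dnmt3a KO 1 and 2 and Rosa KO 1. Run 2 held Asxl1 KO 2, Dnmt3a KO 3 and 4 and Tet2 KO 1 and 2, with no Rosa KO library. Run 3 held Asxl1 KO 3 and 4, Tet2 KO 3 and 4 and Rosa KO 2 to 5, with no Dnmt3a KO library. What changed between runs was not tested.

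B cells carry an antigen receptor whose bound immunoglobulin signals through the Cd79a and Cd79b chains. They also present antigen on MHC class II molecules, whose assembly needs the invariant chain encoded by Cd74. The transcription factors Ebf1 and Pax5 specify the lineage and keep it, and activate many of its genes. CD8 T cells use the T cell receptor with CD3 chains, and the spleen they are taken from is rich in B cells. Cd74 and H2-Aa are also expressed by dendritic cells and macrophages, whereas the other 7 genes are used mainly by B cells among spleen cells. In bulk RNA, fewer cells of a type and less RNA per cell cannot be told apart.

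Promoter sequences are shown for 1 gene of each of 3 roles, since the genes are regulated by shared B cell and MHC class II factors: Cd79a for the receptor, H2-Aa for antigen presentation and Blnk for signalling. Each is the 250 bases upstream of the annotated start, read 5′ to 3′ along the gene's strand from RefSeq promoters of GRCm38.p6, the assembly also named mm10. Capitals mark a match to 1 of 3 motifs searched on both strands: CCCNNGGG of the EBF type, the octamer ATGCAAAT, and CTGATTGG, the Y box of MHC class II promoters.
Cd79a, chr7:24897247-24897496, plus strand: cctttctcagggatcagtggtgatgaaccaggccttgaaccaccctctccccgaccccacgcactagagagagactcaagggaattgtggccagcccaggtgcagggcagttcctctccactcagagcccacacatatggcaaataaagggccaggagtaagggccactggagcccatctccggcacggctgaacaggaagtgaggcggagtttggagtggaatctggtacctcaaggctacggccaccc
H2-Aa, chr17:34287824-34288073, minus strand: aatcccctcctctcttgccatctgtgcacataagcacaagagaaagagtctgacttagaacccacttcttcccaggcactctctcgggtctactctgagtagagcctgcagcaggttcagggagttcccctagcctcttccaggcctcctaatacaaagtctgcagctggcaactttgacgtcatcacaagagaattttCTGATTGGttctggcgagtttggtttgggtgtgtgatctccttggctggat
Blnk, chr19:40994222-40994471, minus strand: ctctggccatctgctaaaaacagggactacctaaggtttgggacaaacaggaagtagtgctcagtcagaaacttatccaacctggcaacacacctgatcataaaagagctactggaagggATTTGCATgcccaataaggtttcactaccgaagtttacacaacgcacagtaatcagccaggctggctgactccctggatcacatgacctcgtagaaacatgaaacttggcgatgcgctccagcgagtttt
The H2-Aa window held a Y box that starts 51 bases upstream of the start, and the Blnk window held an octamer on the other strand that starts 130 bases upstream. The Cd79a window held no exact match to any of the 3, and looser matches were not searched. Promoters of 6 of the 9 genes were matched by symbol, as 7 windows because Ebf1 has a pair of starts; those of Cd79b, Ms4a1 and Cd74 are not printed. Each motif was in 1 of the 7 windows, the EBF type being in that of Bank1, 21 bases upstream. Over all 32851 promoters, 11.8% held the EBF type, 1.60% the octamer and 3.83% the Y box within the same length. A match is a description of letters, not of a bound site.

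Each library held between 6625833 and 40701203 counts, with a median of 21642477. The T cell identity of the libraries was plain in all 17: Cd3e, a chain of the T cell receptor complex, ran from 1246 to 4966 CPM (counts scaled to a common library size with TMM factors), and the 10 CD8 T cell markers summed to between 4806 and 12530 CPM. The 9 B lineage genes had counts in every library, took 0.0145% (Tet2 KO 2) to 0.530% (Tet2 KO 3) of all counts and all passed the filter on low counts. One library stood apart from the rest. Tet2 KO 2 had the lowest level of all 9 genes, with a summed 152 CPM, against 1095 to 5440 CPM in the other 16 libraries. Results that rest on it are given with and without it.

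Per kilobase of merged exons, the genes kept a steep order. The median over 17 libraries was 475 CPM per kilobase for Cd74, 218 for H2-Aa, 130.96 for Cd79b and 92.3 for Cd79a. It was 65.9 for Ms4a1, 43.5 for Bank1, 16.7 for Pax5, 11.2 for Blnk and 7.63 CPM per kilobase for Ebf1. The antigen presentation and receptor genes thus stood highest, and Pax5, Blnk and Ebf1 were at the low end. Per kilobase, Cd74 exceeded H2-Aa in 17 of 17 libraries and Pax5 exceeded Blnk in 17. This order depends on the length used, which was 1679 bases for Cd74 and 3798 for H2-Aa. In CPM not divided by length, H2-Aa was above Cd74 in some libraries, at 1651 against 798 in Rosa KO 3. It was below Cd74 in others, at 450 against 755 in Asxl1 KO 1. Cd79b exceeded Cd79a in 15, and the least stable neighbours were Bank1, below Ms4a1 in 14, and Ebf1, below Blnk in 12.

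The receptor chains were examined first. Cd79a (NCBI gene 12518, GRCm38.p6 chromosome 7, 24897497 to 24901858) encodes the Ig-alpha chain. Its level was 99.6, 51.7, 71.2 and 71.3 CPM in Asxl1 KO 1 to 4. It was 145, 148, 111 and 31.8 CPM in Dnmt3a KO 1 to 4, and 135, 11.1, 338 and 314 CPM in Tet2 KO 1 to 4. In Rosa KO 1 to 5 it was 26.3, 283, 213, 310 and 291 CPM. The 4 Rosa KO libraries of run 3 and both Tet2 KO libraries of run 3 were the highest of all 17, while Rosa KO 1 of run 1 was lower than every Asxl1 KO library, so the groups overlap across runs. Cd79b (chromosome 11, 106311341 to 106314562), the Ig-beta chain, ran from 79.1 to 105 CPM in Asxl1 KO libraries, 56.0 to 252 in Dnmt3a KO, 13.1 to 334 in Tet2 KO and 42.9 to 338 CPM in Rosa KO. Its lowest libraries were again Tet2 KO 2 and Rosa KO 1.

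The antigen presentation genes had the highest levels per kilobase. H2-Aa (chromosome 17, 34282744 to 34287823), the alpha chain of the MHC class II molecule I-A, was at 450, 409, 599 and 437 CPM in Asxl1 KO 1 to 4. It was at 827, 924, 753 and 399 CPM in Dnmt3a KO 1 to 4, and at 972, 25.5, 2201 and 1859 CPM in Tet2 KO 1 to 4. In Rosa KO 1 to 5 it was at 319, 1685, 1651, 1619 and 1471 CPM. The 4 Asxl1 KO libraries lay close together, within 409 to 599 CPM, in all 3 runs. Cd74 (chromosome 18, 60803849 to 60812652), the invariant chain, ran from 344 to 755 CPM in Asxl1 KO, 331 to 1132 in Dnmt3a KO, 34.1 to 1400 in Tet2 KO and 388 to 1296 CPM in Rosa KO.

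Ms4a1 (chromosome 19, 11249679 to 11266149) encodes the B cell surface protein CD20. It ran from 117 to 181 CPM in Asxl1 KO, 106 to 492 in Dnmt3a KO, 16.4 to 437 in Tet2 KO and 125.1 to 642 CPM in Rosa KO. Bank1 (chromosome 3, 136053363 to 136326141) is a scaffold that links the B cell receptor to calcium release. Its level was 157, 265, 80.4 and 83.9 CPM in Asxl1 KO 1 to 4. It was 247, 326, 503 and 113 CPM in Dnmt3a KO 1 to 4, and 398, 26.8, 403 and 461 CPM in Tet2 KO 1 to 4. In Rosa KO 1 to 5 it was 110, 499, 628, 527 and 522 CPM. Asxl1 KO 3 and 4 were the lowest libraries of run 3 for Bank1, and Rosa KO 1 was the lowest of run 1. Blnk (chromosome 19, 40928927 to 40994221), the adaptor that couples the kinase Syk to its targets, ran from 10.4 to 51.2 CPM in Asxl1 KO, 28.8 to 85.3 in Dnmt3a KO, 2.31 to 91.4 in Tet2 KO and 13.2 to 92.4 CPM in Rosa KO.

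Ebf1 and Pax5 differed in where they were high. Ebf1 (chromosome 11, 44618100 to 45008096) was at 9.25, 74.4, 15.8 and 20.4 CPM in Asxl1 KO 1 to 4. It was at 96.0, 49.5, 147 and 35.0 CPM in Dnmt3a KO 1 to 4, and at 63.7, 7.96, 83.1 and 116 CPM in Tet2 KO 1 to 4. In Rosa KO 1 to 5 it was at 10.5, 211, 95.1, 130 and 148 CPM. Ebf1 was highest in a Rosa KO library of run 3 and lowest in Tet2 KO 2. Pax5 (chromosome 4, 44524748 to 44710694) was at 158, 131.7, 56.4 and 44.3 CPM in Asxl1 KO 1 to 4. It was at 311, 243, 237 and 79.6 CPM in Dnmt3a KO 1 to 4, and at 148, 14.6, 159 and 148 CPM in Tet2 KO 1 to 4. In Rosa KO 1 to 5 it was at 60.7, 147, 158, 207 and 188 CPM. Pax5 was highest in 3 Dnmt3a KO libraries, of runs 1 and 2, and not in the Rosa KO and Tet2 KO libraries of run 3 that led for Cd79a.

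**Figure D1:**
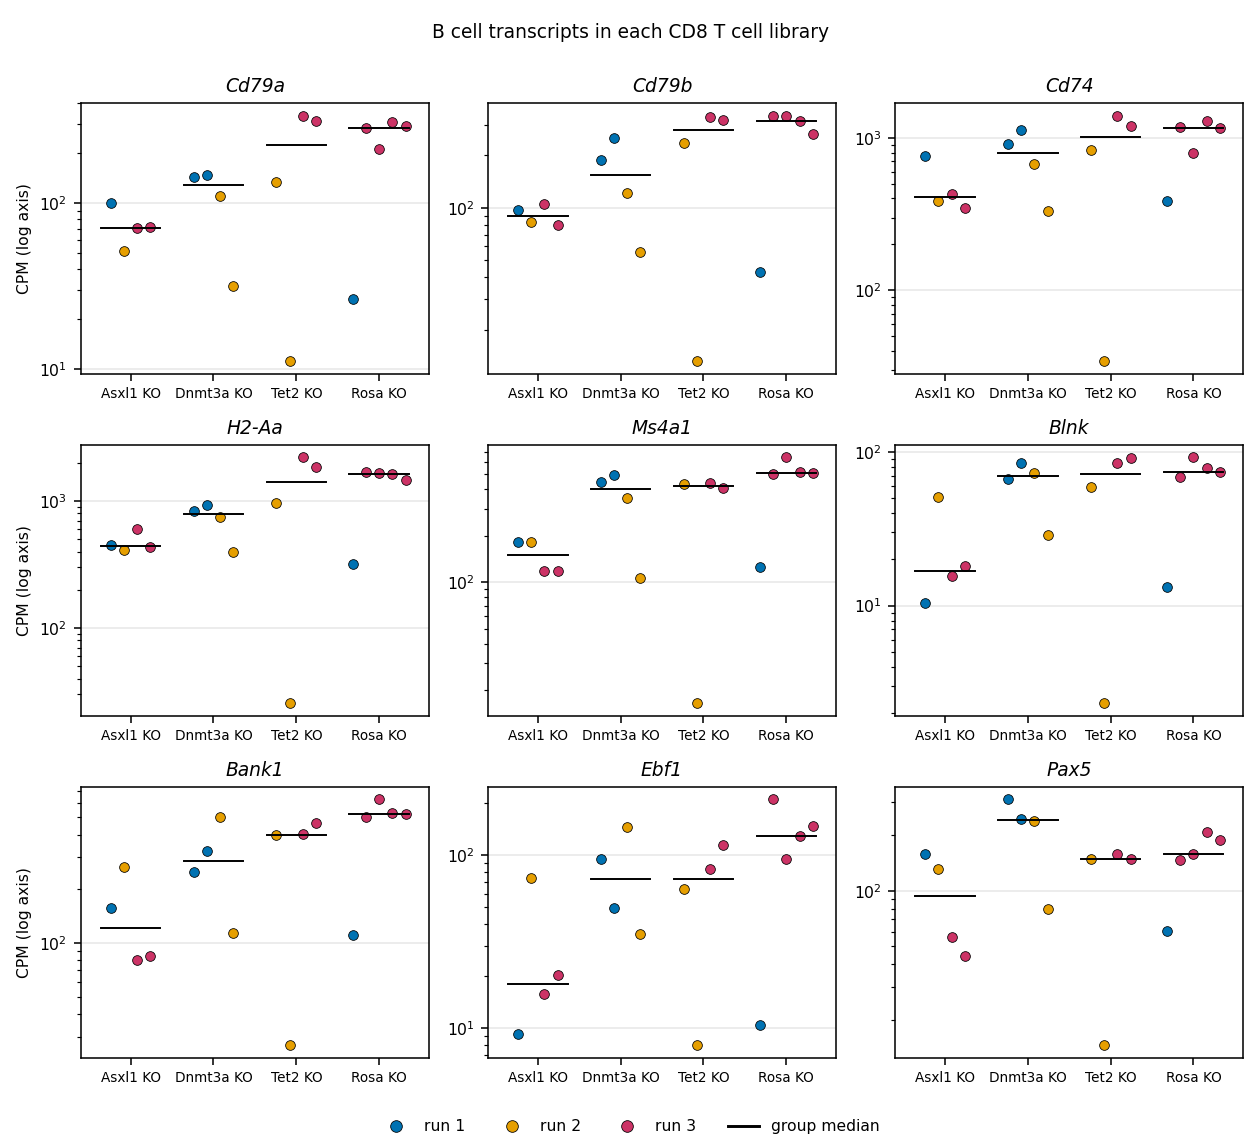
Level of each of the 9 B lineage genes in CPM (log axis) in every library, by group, with colour for the run and a line at the group median. Tet2 KO 2 lies lowest in all 9 panels, at 11.1 CPM for Cd79a and 25.5 CPM for H2-Aa, and Rosa KO 1 lies below the other 4 Rosa KO libraries in each.

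The first question was whether the genes differ between knockouts and Rosa KO once run is taken into account. In a model of group plus run fitted to the 17 libraries (edgeR's quasi-likelihood test, Benjamini-Hochberg adjusted p under 0.05), 0 of 9 passed in Asxl1 KO minus Rosa KO, where 1.64% of the 13881 tested genes passed in either direction. The adjusted p-values lay between 0.542 and 0.813. The median of the 9 was -0.90 on the log2 scale, with all 9 below 0, against 0.00 over all genes. For Dnmt3a KO minus Rosa KO 0 of 9 passed (0.216% of all genes), with a median of 0.32 and 8 of 9 above 0. With no run term that median was -0.54 and 7 of the 9 genes changed sign. In a fit to the Dnmt3a KO and Rosa KO libraries alone, where run 1 is the one run with both groups, 5 of 9 were called higher (0.171%) and the median was 2.19. The like fit for Asxl1 KO and Rosa KO called 2 of 9 lower (0.742%). For Tet2 KO minus Rosa KO 0 of 9 passed (1.47%), with a median of 0.00 and 5 of 9 above 0. No gene had an unadjusted p under 0.05 in these 3 comparisons, and DESeq2 also called 0 in each. The standard errors were 0.70 to 1.19. Within run 2, Tet2 KO 1 exceeded Tet2 KO 2 by 8.01 (Ebf1) to 38.1 times (H2-Aa). Without Tet2 KO 2 the median of Asxl1 KO minus Rosa KO was -1.11, without Rosa KO 1 it was -1.52, and without Tet2 KO 1 it was -0.31. It was -0.51 without Asxl1 KO 3 and -0.45 without Asxl1 KO 4. For Dnmt3a KO minus Rosa KO the sign turned, to -0.05 without Tet2 KO 2 and -0.39 without Rosa KO 1, and it was 1.05 without Tet2 KO 1. For Tet2 KO minus Rosa KO the median was 0.23 without Tet2 KO 2 and -0.32 without Rosa KO 1. The count of calls was 0 in each of these fits. Without the filter on low counts, the model called 7 of 9 lower in Asxl1 KO than in Rosa KO, where 1.26% of all genes were called lower, and none in the other pair of comparisons with Rosa KO.

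Between knockouts the same model again called 0 of 9, as did DESeq2. In Asxl1 KO minus Dnmt3a KO (0.353% of all genes called) the median was -1.19. Ebf1 alone had an unadjusted p under 0.05, 0.0388 by edgeR (adjusted p = 0.423). In Asxl1 KO minus Tet2 KO (0.562%) the median was -0.95, and in Dnmt3a KO minus Tet2 KO (0.0937%) it was 0.30, with 0 of 9 at an unadjusted p under 0.05 in both. Leaving out 1 library kept the median of Asxl1 KO minus Dnmt3a KO between -1.69 (without Asxl1 KO 2) and -0.99 (without Rosa KO 1). The median of Asxl1 KO minus Tet2 KO moved to between -1.55 (without Asxl1 KO 2) and -0.19 (without Tet2 KO 1). It was -1.48 without Tet2 KO 2, -0.58 without Asxl1 KO 3 and -0.55 without Asxl1 KO 4. The median of Dnmt3a KO minus Tet2 KO was 1.26 without Tet2 KO 1 and 0.73 without Dnmt3a KO 4. Its sign turned without Tet2 KO 2 (-0.34), Rosa KO 1 (-0.20) or Dnmt3a KO 3 (-0.057). Without the filter, 9 of 9 were called lower in Asxl1 KO than in Dnmt3a KO (0.698% of all genes) and 6 of 9 lower than in Tet2 KO (0.368%). Across runs, every one of the 9 genes overlapped between each knockout and Rosa KO. Of all genes, 1.4% lay wholly below and 1.38% wholly above Rosa KO in Asxl1 KO, 2.01% and 2.02% in Dnmt3a KO, and 1.38% and 1.43% in Tet2 KO.

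Within run 3, the one run with several Rosa KO libraries, the 9 genes separated Asxl1 KO from the rest. All 9 genes were lower in both Asxl1 KO libraries than in each of the 4 Rosa KO libraries, a pattern that 12% of all tested genes showed. Cd79a averaged 71.2 ± 0.0610 CPM in Asxl1 KO (SD, n = 2) and 274 ± 42.5 CPM in Rosa KO (SD, n = 4). Bank1 averaged 82.1 ± 2.47 CPM in Asxl1 KO (n = 2) and 544 ± 57.2 CPM in Rosa KO (n = 4). These differences exceed the spread between libraries of either group. Ebf1 averaged 18.1 ± 3.21 CPM in Asxl1 KO, against 146 ± 48.6 CPM in Rosa KO. H2-Aa averaged 518 ± 115 CPM in Asxl1 KO, against 1606 ± 93.9 CPM in Rosa KO. All 9 genes were also lower in both Asxl1 KO libraries than in both Tet2 KO libraries of the run, against 22.3% of all genes.

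A fit to the 8 libraries of run 3 alone, chosen after the data were seen, called all 9 genes lower in Asxl1 KO than in Rosa KO, where 2.65% of 13893 genes were called lower. Ebf1 fell by 3.01 ± 0.31 and Bank1 by 2.73 ± 0.16 on the log2 scale (± SE; edgeR, adjusted p = 3.87e-06 and 1.04e-08). Blnk fell by 2.22 ± 0.26, Ms4a1 by 2.21 ± 0.15 and Cd79a by 1.95 ± 0.18. Pax5 fell by 1.80 ± 0.20, Cd79b by 1.78 ± 0.17, H2-Aa by 1.63 ± 0.15 and Cd74 by 1.52 ± 0.18, and the adjusted p-values of the 9 did not exceed 2.21e-05. The signalling scaffold and Ebf1 thus had the largest estimates and the antigen presentation genes the smallest, and those differences between genes were not tested. Against Tet2 KO of the same run, the same fit called all 9 lower in Asxl1 KO (0.763% of genes called lower), by between 1.61 (Pax5) and 2.46 (Ebf1), with adjusted p-values of 2.41e-07 to 0.000239.

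The same contrast in a model with a term for each group in each run gave 0 of 9 calls over all 17 libraries (2.27% of genes called in either direction), with a median of -1.95, edgeR adjusted p-values of 0.152 to 0.501, and 2 of 9 at an unadjusted p under 0.05. That model shares its estimate of spread with Tet2 KO 1 and Tet2 KO 2. Leaving out either library takes the same difference, that between Tet2 KO 1 and Tet2 KO 2, out of the estimate. For contrasts outside run 2, here and below, the fits without one or the other are thus not separate checks. Left out one at a time, either of those libraries brought the count to 9 of 9 lower, at adjusted p-values of up to 0.0102 without Tet2 KO 1 (2.67% of genes called lower) and up to 0.0158 without Tet2 KO 2 (2.67%). For Asxl1 KO minus Tet2 KO of run 3 the model called 0 of 9 with all libraries (0.295%; 2 of 9 at an unadjusted p under 0.05) and 8 of 9 lower without Tet2 KO 1 (0.701%) and, in a separate fit, without Tet2 KO 2 (0.7%).

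Tet2 KO and Rosa KO of run 3 overlapped for 5 of the 9 genes. Cd79a averaged 326 ± 16.6 CPM in Tet2 KO (SD, n = 2) and 274 ± 42.5 CPM in Rosa KO (n = 4), and Bank1 432 ± 41.1 CPM in Tet2 KO and 544 ± 57.2 CPM in Rosa KO. Both Tet2 KO libraries lay above all 4 Rosa KO libraries for Cd79a and H2-Aa (2 of 9; 13.5% of all genes), and below them for Ms4a1 and Bank1 (2 of 9; 10.6%). In the fit of run 3 alone 0 of 9 passed, by edgeR and by DESeq2 (2.9% of genes called in either direction), with log2 differences from -0.55 (Ebf1) to 0.34 (H2-Aa). Of the 9, 3 had an unadjusted p under 0.05: Ms4a1 at -0.37 ± 0.14, H2-Aa at 0.34 ± 0.13 and Bank1 at -0.33 ± 0.14 (edgeR, adjusted p = 0.204, 0.229 and 0.265).

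Run 1 held a single Rosa KO and a single Asxl1 KO library, so a fit there assumes that a lone library varies as the 2 Dnmt3a KO libraries do. Every gene was higher in both Dnmt3a KO libraries than in Rosa KO 1, against 33% of all genes. In the fit of run 1 alone, 6 of 9 passed as higher in Dnmt3a KO (0.197% of 13686 genes called higher). They were Cd79a at 2.48 ± 0.33, Cd79b at 2.36 ± 0.32, Pax5 at 2.19 ± 0.28, Ms4a1 at 1.91 ± 0.22, H2-Aa at 1.46 ± 0.19 and Cd74 at 1.40 ± 0.19 (log2, edgeR, adjusted p = 0.0104 to 0.0116). Ebf1 at 2.80 ± 0.59, Blnk at 2.54 ± 0.50 and Bank1 at 1.38 ± 0.26 did not pass (edgeR, adjusted p = 0.108, 0.0795 and 0.0680). The count from DESeq2 in that fit is left out, as no share of all genes called by DESeq2 stands beside it. The model with a term for each group in each run called 0 of 9 (0.0576% in either direction), with 0 at an unadjusted p under 0.05, and 7 of 9 higher without Tet2 KO 1 (0.274%) or 6 of 9 higher without Tet2 KO 2 (0.273%).

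Asxl1 KO 1 against Rosa KO 1 was mixed, with 7 genes above (45.6% of all genes) and 2 below (51%). Cd79a at 1.92 ± 0.35, Pax5 at 1.38 ± 0.29 and Cd74 at 0.96 ± 0.21 were higher in Asxl1 KO 1 (edgeR, adjusted p = 0.0182, 0.0288 and 0.0330), 3 of 9 genes where 2.64% of all were called higher. Ebf1 at -0.19 ± 0.60 and Blnk at -0.35 ± 0.52 had the opposite sign and did not pass. Asxl1 KO 1 was below both Dnmt3a KO libraries for 9 of 9 genes (39.4% of all genes), and 5 of 9 passed as lower in Asxl1 KO (4.08%): Ebf1 fell by 2.98, Blnk by 2.89, Ms4a1 by 1.38, Cd79b by 1.20 and H2-Aa by 0.97. The median of all genes in that comparison was itself -0.16. With all libraries, the model of each group in each run called 0 of 9 in both comparisons (7.36% for Asxl1 KO minus Rosa KO and 12.5% for Asxl1 KO minus Dnmt3a KO), with 0 at an unadjusted p under 0.05.

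Whether the Asxl1 KO difference from Rosa KO changed between runs was tested directly. Run 3 minus run 1 of that difference had a median of -2.83 over the 9 genes, from -3.87 to -1.88. With all libraries 0 of 9 passed (4.15% of genes called in either direction; edgeR, adjusted p = 0.230 to 0.604), and 1 had an unadjusted p under 0.05. Without Tet2 KO 1, 7 of 9 passed as more negative in run 3 (2.72% of genes called in that direction), and without Tet2 KO 2 also 7 (2.79%). Rosa KO 1 and Asxl1 KO 1 are the only libraries behind the run 1 side of this contrast.

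**Figure D2:**
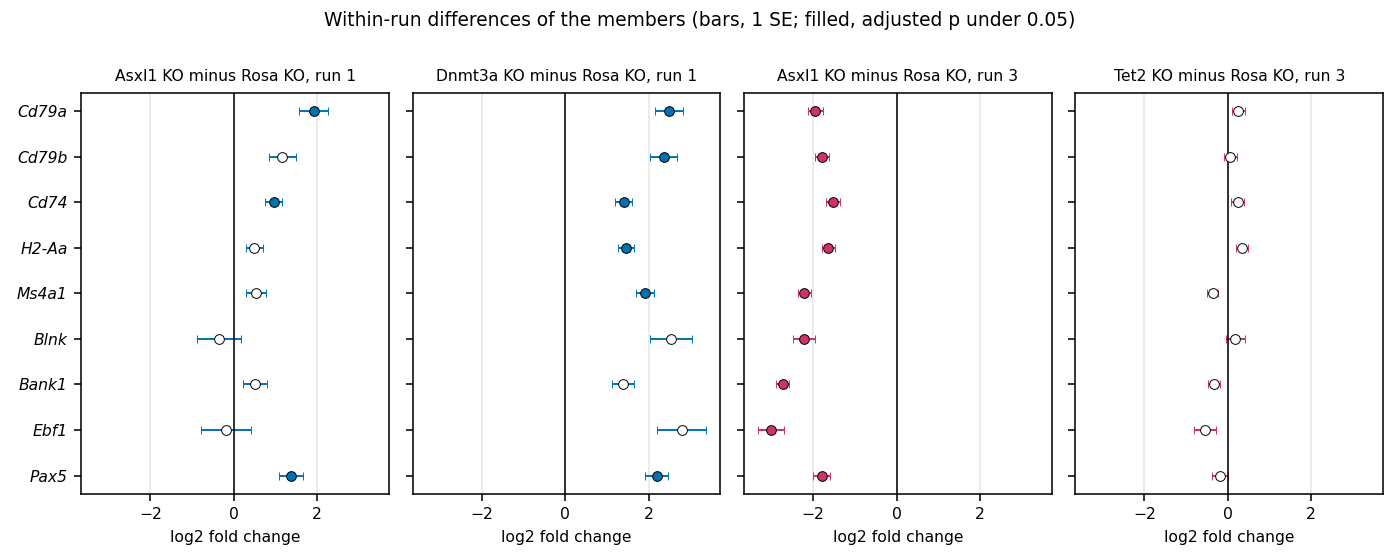
Log2 fold change of each of the 9 genes from fits to the libraries of 1 run alone, with bars of 1 SE and filled points at an adjusted p under 0.05. Asxl1 KO lies below Rosa KO for all 9 in run 3 (-3.01 to -1.52), while in run 1 Dnmt3a KO lies above Rosa KO (1.38 to 2.80) and Asxl1 KO spans -0.35 to 1.92.

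In run 2, which has no Rosa KO library, Dnmt3a KO 3 exceeded Dnmt3a KO 4 by 1.89 to 4.43 times, and Tet2 KO 1 exceeded Tet2 KO 2 by a median of 17.9 times. The fit of run 2 alone called 0 of 9 for Asxl1 KO minus Dnmt3a KO (0% of genes), Asxl1 KO minus Tet2 KO (0.163%) and Dnmt3a KO minus Tet2 KO (0.0813%), with 0 of 9 at an unadjusted p under 0.05 in each, 0 by DESeq2, and standard errors of 1.64 to 2.65. Results there turned on which Tet2 KO library was kept. The model of each group in each run called 0 of 9 for Asxl1 KO minus Tet2 KO (0.195%) and for Dnmt3a KO minus Tet2 KO (0.122%), with 0 at an unadjusted p under 0.05. Leaving out either one leaves a single Tet2 KO library in run 2, beside the single Asxl1 KO library, and the model assumes that lone libraries vary as the other groups do. Without Tet2 KO 1, 8 of 9 passed as higher in Asxl1 KO 2 than in Tet2 KO 2 (1.66% of genes called higher), with a median of 3.35. Without Tet2 KO 2 instead, 0 of 9 passed (0.154% higher) and the median was -1.08. For Dnmt3a KO minus Tet2 KO the count was 9 of 9 higher without Tet2 KO 1 (1.9%, median 3.56) and 0 of 9 without Tet2 KO 2 (0.028%, median -0.71). The change of Asxl1 KO minus Tet2 KO between runs 2 and 3 was called for 9 of 9 without Tet2 KO 1 (2.01% lower), for 0 of 9 without Tet2 KO 2 (0.161%), and for 0 of 9 with all libraries, where 0% of genes passed and 1 of the 9 had an unadjusted p under 0.05, at 0.0379.

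Between runs, with group in the model, calls for these genes depended on the filter. For run 2 minus run 1, 0 of 9 passed (15.5% of all genes did), the median was -0.38, and 0 of 9 had an unadjusted p under 0.05. For run 3 minus run 1, 0 of 9 passed (13.5%), the median was 0.84, and 0 of 9 had an unadjusted p under 0.05. DESeq2 called 1 there, with no share of all genes given. For run 3 minus run 2, 0 of 9 passed (12.1%), the median was 0.74, and Cd79a alone had an unadjusted p under 0.05, at 0.0357. Without the filter on low counts, 2 were called higher and 2 lower in run 2 minus run 1 (10.5% in either direction), 6 higher in run 3 minus run 1 (4.64% higher) and 5 higher in run 3 minus run 2 (4.63% higher). Leaving out 1 library moved the median of run 3 minus run 1 to between -0.096 (without Rosa KO 1) and 1.60 (without Tet2 KO 1). For run 3 minus run 2 it lay between 0.27 (without Tet2 KO 2) and 1.80 (without Tet2 KO 1), with 0.30 without Rosa KO 1 and 1.61 without Asxl1 KO 2, and for run 2 minus run 1 between -0.81 (without Rosa KO 1) and -0.053 (without Asxl1 KO 1).

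Levels relative to Cd79a in the same library separate a change in all 9 genes from a change in their proportions. The log2 level of single genes had an SD over 17 libraries of 1.10 (Pax5) to 1.54 (Ebf1). The log2 ratio to Cd79a had an SD of 0.34 for Cd79b, the partner chain, of 0.55 for H2-Aa and of 0.59 for Cd74 and for Ms4a1. It was 0.70 for Bank1, 0.84 for Blnk, 0.90 for Pax5 and 0.99 for Ebf1. The pair of receptor chains thus kept the steadiest proportion, and Ebf1 and Pax5 varied most.

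Pax5 relative to Cd79a split by run, with Asxl1 KO, Tet2 KO and Rosa KO libraries on both sides. The log2 ratio averaged 0.92 ± 0.27 in run 1 (SD, n = 4), 0.86 ± 0.56 in run 2 (n = 5) and -0.72 ± 0.29 in run 3 (n = 8). All 8 libraries of run 3, between -1.09 and -0.34, lay below all 9 of the other runs, whose lowest was 0.13 (Tet2 KO 1). Run 3 minus run 1 was -1.65 and run 3 minus run 2 was -1.58 (exact permutation tests over libraries, two-sided, adjusted p = 0.0242 for both). These tests were chosen after the data were seen and are 2 of 24 made, for 8 genes and 3 pairs of runs, of which 6 had an adjusted p under 0.05. The other 4 were Cd74 in run 3 minus run 1 at -0.99, Bank1 in run 3 minus run 2 at -1.19, Ms4a1 in run 3 minus run 1 at -0.85 and Ebf1 in run 3 minus run 2 at -1.31 (exact permutation tests, adjusted p = 0.0242, 0.0242, 0.0323 and 0.0323). No ratio differed between runs 2 and 1 past the threshold, and Cd79b and H2-Aa in none of the 3 pairs. All 24 tests share Cd79a, which itself had the largest estimate of the 9 in run 3 minus run 2 (1.87, log2). Whether Cd79a or the other gene moved was not tested. Against Cd79b in its place, Pax5 overlapped between runs. The log2 CPM of Pax5 and Cd79b was 7.21 and 7.88 in Tet2 KO 1 of run 2, and 7.56 and 8.06 in Rosa KO 5 of run 3. The runs hold different groups, and the part of group in these ratios was not tested.

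Single libraries also had their own proportions. Asxl1 KO 1 had the lowest Ebf1 and Blnk relative to Cd79a of all 17, at -3.41 and -3.25, and its Pax5 ratio of 0.67 was the lowest of run 1. Asxl1 KO 2 had the highest Ebf1, Pax5, Blnk and Bank1 ratios, at 0.52, 1.35, -0.01 and 2.35. Tet2 KO 2, low for every gene, had the lowest H2-Aa and Cd74 ratios, at 1.20 and 1.62, so both were low there in proportion to Cd79a as well as in level.

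**Figure D3:**
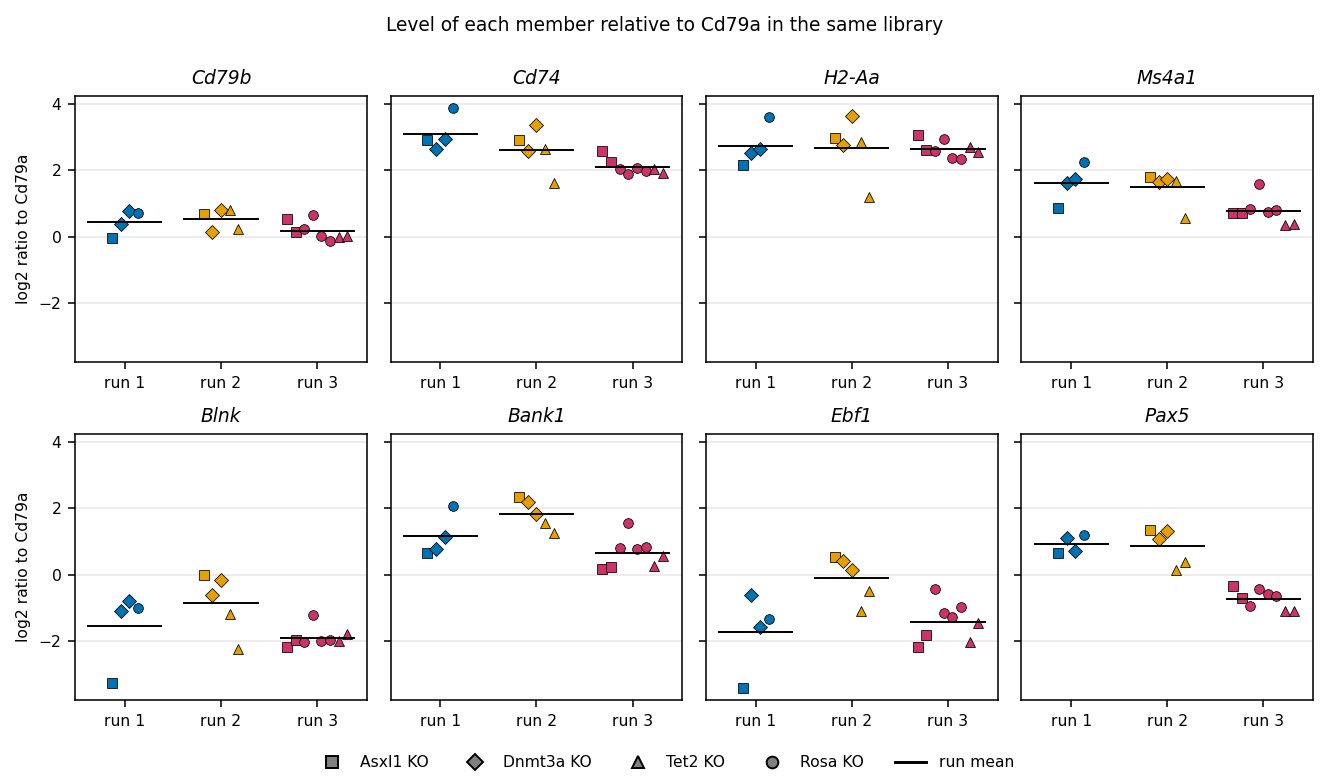
Log2 ratio of each gene to Cd79a in the same library, by run (colour and x axis) and group (marker), with a line at the run mean. Pax5 in run 3 averages -0.72 and does not overlap runs 1 and 2 (0.92 and 0.86), whereas H2-Aa averages between 2.65 and 2.73 in every run.

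Predicted and provisionally named genes, antigen receptor V, D and J segments and the 9 genes were left out. A total of 9640 other tested genes had a mean level of at least 5 CPM. Those whose log2 level followed the mean of the 9 most closely over 17 libraries were ranked by the SD of the difference. Rasgrp3, an activator of Ras in B cells, and Mef2c, a transcription factor, had an SD of 0.30 and 0.31, followed by Cd22, an inhibitory B cell lectin (0.35), Scd1, a fatty acid desaturase (0.36), and Blk, a B cell Src kinase (0.38). Next came Cd83 and the MHC class II beta chain gene H2-Ab1 (0.39 each), Nxpe2 (0.41), the protease gene Ctsh (0.42) and Pou2af1, a coactivator at octamer sites (0.43). The 9 genes themselves ranged from 0.24 (Ms4a1) to 0.76 (Ebf1), and their mean had an SD of 1.29. Each of the 9 is part of that mean, which lowers its SD, so these values are not directly comparable with those of the other genes. This is a description over libraries that share runs and depth.

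Wider B cell lists were followed in the fits to single runs. Of 20 other B cell genes, 17 fell in Asxl1 KO against Rosa KO in the fit of run 3 alone and 0 rose (median -1.94, against 0.01 over all genes, of which 2.65% were called lower). Pou2af1 fell by 1.90 ± 0.15, Ralgps2 by 2.42 ± 0.21, Fcmr, a receptor for IgM, by 2.28 ± 0.21 and Cd22 by 1.99 ± 0.19 (log2, edgeR, adjusted p up to 1.73e-06). Of 8 further MHC class II genes 7 fell, H2-Ab1 by 1.64 and H2-Ob by 2.31 among them. Of 12 genes of B cell receptor signalling 7 fell, led by the kinases Lyn at -1.59 and Syk at -1.58. In Tet2 KO against Rosa KO of run 3, 2 of the 20 B cell genes, 0 of the 8 MHC class II genes and 1 of the 12 signalling genes fell (1.1% of all genes called lower). In Dnmt3a KO against Rosa KO of run 1, which rests on the single library Rosa KO 1, 9 of the 20 rose (0.197% of all genes called higher), with Cd22 at 2.60 ± 0.29, as did 3 of the 8, with H2-DMb2 at 3.79 ± 0.49, and 0 of the 12.

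Genes of B cell stages were followed in the fit of Asxl1 KO against Rosa KO in run 3 alone. There 2.65% of all genes were called lower and 1.77% higher. Of 6 marginal zone genes 2 fell and 1 rose. Cr2, a complement receptor of marginal zone and follicular B cells, fell by 1.98 ± 0.20 and S1pr3, a sphingosine 1-phosphate receptor, by 2.55 ± 0.70, while Cd9, a tetraspanin that other cells express too, rose by 1.80 ± 0.41 (edgeR, adjusted p = 3.87e-06, 0.0434 and 0.0154). Of the 6 germinal centre genes Mybl1 and Bcl6 fell, by 2.24 and 1.34, and which cells their RNA came from was not tested. Of 8 plasma cell genes 2 fell, Jchain by 1.08 and Mzb1 by 1.56, and Sdc1, which marks plasma cells, never exceeded 4.53 CPM in any library. Of 6 genes of early B cells, Cd93, which endothelial and myeloid cells also express, ran from 0.814 to 46.9 CPM and did not pass, at -0.89 ± 0.77. The other 5 never exceeded 5.29 CPM: Igll1 was at 0 in 16 of 17 libraries, Rag2 in 14 and Dntt in 12. None of 11 immunoglobulin constant region genes is listed by symbol in the tables used here.

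Markers of other cells moved with some of these results. In Asxl1 KO against Rosa KO of run 3, 6 of 10 CD8 T cell genes rose (1.77% of all genes called higher), with Cd3g at 0.97 ± 0.15 and Cd8a at 0.70 ± 0.12, and the summed level of the 10 was 8339 to 8727 CPM in Asxl1 KO, above the 5259 to 5973 CPM of Rosa KO. Of the 6 genes listed for NK cells, some of which CD8 T cells also express, 3 fell (2.65% of all genes called lower) and 1 rose. Klrb1c fell by 2.73 ± 0.21, Gzma by 1.75 ± 0.16 and Klre1 by 1.51 ± 0.19, and Eomes rose by 1.32 ± 0.18. None of the 8 dendritic, 8 myeloid, 7 tested neutrophil, 5 erythroid or 4 platelet genes passed, and the myeloid sum of 428 to 491 CPM in Asxl1 KO lay within the 340 to 655 CPM of Rosa KO. Of 5 CD4 T cell genes 0 passed, but their sum was 172 and 211 CPM in Asxl1 KO 3 and 4, above the 122 to 145 CPM of Rosa KO, with Cd4 at 1.79 ± 0.68 and Ctla4 at 0.58 ± 0.20 (edgeR, adjusted p = 0.153 and 0.110). The part of the T cell and NK list changes in the result was not tested, nor which cells the NK list RNA came from.

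Tet2 KO 2 was low for more than B cells. Its 20 other B cell genes summed to 197 CPM, against 745 to 3315 CPM in the other 16 libraries, and its 8 MHC class II genes to 79.5 CPM, against 568 to 2241 CPM. The 8 myeloid genes summed to 41.1 CPM, against 340 to 990 CPM elsewhere, with Lyz2, lysozyme, at 12.7 CPM. The 8 neutrophil genes summed to 3.93 CPM (29.9 to 366 elsewhere) and the 4 platelet genes to 2.08 CPM (17.3 to 202 elsewhere). Also lowest in Tet2 KO 2 were the sums of the CD4 T cell genes (48.1 CPM, 55.3 to 211 elsewhere) and erythroid genes (25.4 CPM, 31.9 to 2932 elsewhere). The same held for the plasma cell genes (263 CPM, 346 to 902 elsewhere) and B cell receptor signalling genes (589 CPM, 682 to 1442 elsewhere). Its CD8 T cell genes, at 5784 CPM, were within the 4806 to 12530 CPM of the rest. Its 6 genes of the NK list, at 2606 CPM, were within 822 to 3284 CPM, and its 8 dendritic genes, 231 CPM, within 153 to 262 CPM. Itgax, which activated T cells also express, made up 209.9 CPM of the dendritic sum, and Siglech and Batf3 were at 0.

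Rosa KO 1, low for the 9 genes at a summed 1095 CPM, was not low for all other cell types. Its myeloid sum of 990 CPM and its platelet sum of 202 CPM were the highest of all libraries, whereas its CD4 T cell sum of 81.2 CPM was the lowest of Rosa KO and of run 1. Its 20 other B cell genes summed to 745 CPM and its 8 MHC class II genes to 568 CPM, the second lowest of 17 in both. Asxl1 KO 1 had the highest erythroid sum, 2932 CPM, of which Hba-a1, a globin gene, made up 2303 CPM. In the fit of run 1 alone, 0 of 10 CD8 T cell genes passed in Dnmt3a KO minus Rosa KO and 3 rose in Asxl1 KO minus Rosa KO (2.64% of all genes called higher). The part of these levels in the run 1 comparisons was not tested.

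**Figure D4:**
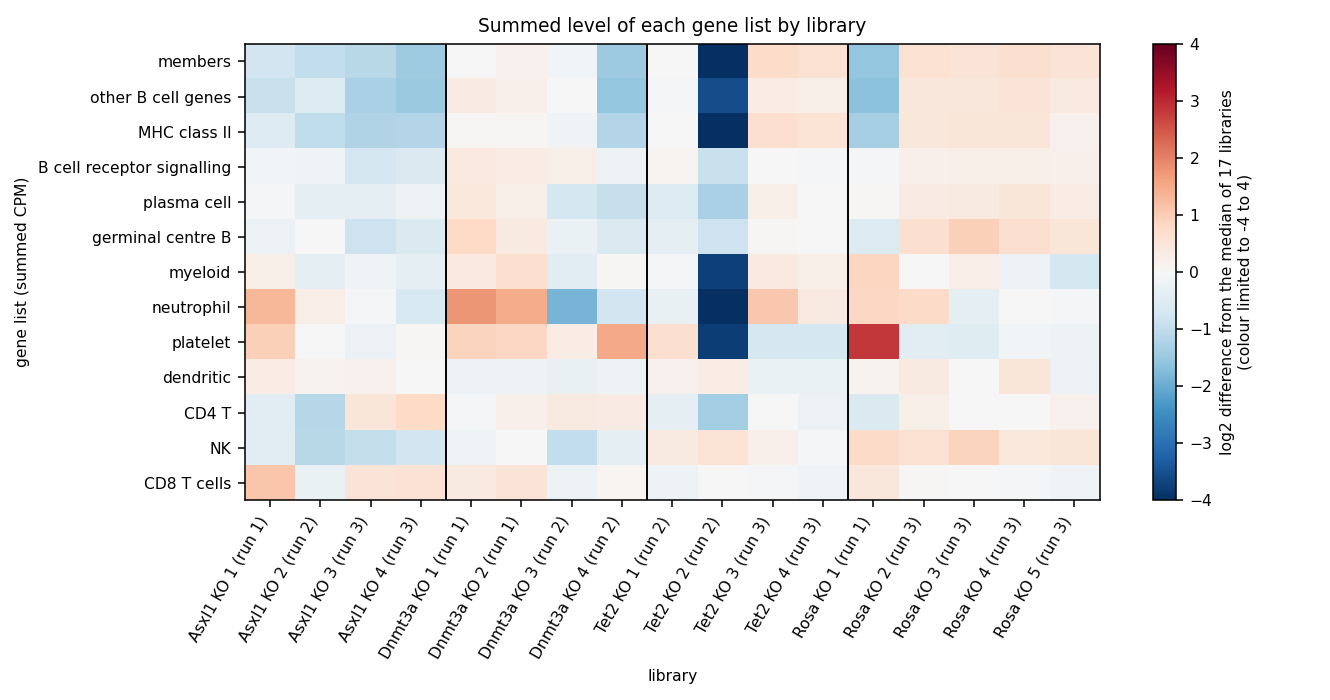
Summed CPM of each gene list in every library, as the log2 difference from the median of the 17 libraries, in columns by group with the run in brackets. Tet2 KO 2 is low in the 9 genes (the row of members, 152 CPM), other B cell genes, MHC class II, myeloid, neutrophil and platelet rows but not in the CD8 T cell row, and Asxl1 KO 3 and 4 are low in the B cell and MHC class II rows.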

How the data were processed

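RNA-seq of mouse CD8 T cells was deposited by the authors as whole-number counts per gene, 1 table per library; per the labels' protocols the libraries were stranded total RNA. Per the submitters' processing notes, STAR 2.5.3a, DESeq2 1.26.0 and the build mm10 were used, in roles that are not stated; the counting tool, annotation and strand setting were not found. Rows with no symbol (3, at most 0.00028% of counts) were kept under their gene identifiers. The 9 genes and all gene lists were chosen with earlier results of these data known.

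Counts were tested with edgeR 4.0.16 in R 4.3.3 (quasi-likelihood, robust, TMM), after a filter of 10 counts per library at the median depth and 15 in all, which left 13881 genes; p-values were adjusted by Benjamini-Hochberg over all of them. The model held group and run (11 residual degrees of freedom, common biological coefficient of variation 0.604); a second model held each group in each run (8 degrees of freedom). CPM values were scaled by TMM, with a prior count of 2 on the log2 scale. Libraries of a group differed beyond sampling noise, with chi-square per degree of freedom of 19.7 to 258 over 28 pairs. Ratios between runs were compared with exact permutation tests (scipy 1.17.1). DESeq2 1.42.0, other scalings, no filter, other terms and leaving out each library were the alternatives. Named by rule were the 9 genes, genes of each list from among the 4 with the smallest p that passed (or, where none did, the 3 highest in level), and the 10 genes that follow the mean of the 9 most closely. Cd3e, Igll1, Rag2, Dntt, Sdc1, Lyz2, Itgax, Siglech, Batf3 and Hba-a1 were named after their values were seen. Cd74 and Pax5 overlap exons of Mir5107 (217 counts, against 280786 for Cd74) and 5730488B01Rik (316 counts, against 55284 for Pax5).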

Additional observations from a re-analysis of the deposited data

Results flagged for a closer look

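In 14 of 36 sets, each 1 of the 9 genes in 1 group, the lowest library lay far from the others by Dixon's test at the 95% level, a test that marks about 1 in 20 sets by chance; sets of the same library are not independent. Rosa KO 1 was that library for 8 genes. Its log2 CPM was 4.72 for Cd79a, 5.43 for Cd79b, 6.97 for Ms4a1 and 8.32 for H2-Aa. It was 3.40 for Ebf1, 5.93 for Pax5, 3.73 for Blnk and 6.79 for Bank1. Tet2 KO 2 was that library for 6 genes. Its log2 CPM was 3.72 for Cd79b, 4.05 for Ms4a1, 5.10 for Cd74, 3.88 for Pax5, 1.26 for Blnk and 4.75 for Bank1. Rosa KO 1 is the one Rosa KO library of run 1, whereas Tet2 KO 1 shares run 2 with Tet2 KO 2.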

How the results depend on the processing

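Without the filter on low counts, the models that called 0 of 9 called 7 in Asxl1 KO minus Rosa KO, 9 in Asxl1 KO minus Dnmt3a KO, 6 in Asxl1 KO minus Tet2 KO, 1 in Dnmt3a KO minus Tet2 KO, and 4, 6 and 5 in runs 2 minus 1, 3 minus 1 and 3 minus 2. Within run 1 it was 4 for Asxl1 KO minus Rosa KO, 9 for Dnmt3a KO minus Rosa KO and 6 for Asxl1 KO minus Dnmt3a KO; within run 2, 2 for Dnmt3a KO minus Tet2 KO; within run 3, 9 for Asxl1 KO minus Rosa KO and 9 for Asxl1 KO minus Tet2 KO. The changes between runs gave 9 for Asxl1 KO minus Rosa KO, 2 for Asxl1 KO minus Dnmt3a KO and 9 for Asxl1 KO minus Tet2 KO. The cause was not tested. Libraries of 1 run alone gave 3, 6 and 5 in run 1 and 9 and 9 in run 3, as reported; library totals gave 8 for Asxl1 KO minus Dnmt3a KO of run 1, with the median of all genes shifted by -0.12. Only the libraries of the groups compared gave 2 for Asxl1 KO minus Rosa KO and 5 for Dnmt3a KO minus Rosa KO, with a median of 2.19. DESeq2 called 1 in run 3 minus run 1. No share of all genes called is given for DESeq2, for library totals or, without the filter, for comparisons within runs and changes between runs. The same holds for Dnmt3a KO minus Tet2 KO without the filter. Whether those counts are particular to the 9 genes cannot be read from them.

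The replicate numbers did not pair the libraries: over 24 same-number pairs r was -0.21 to 0.16, and 4 of 17 libraries correlated best with their own number. The replicate block changed no call; with run as well, the median of run 3 minus run 1 was 2.47.

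Single values changed sign, in Dnmt3a KO minus Rosa KO for 7 of 9 genes with no run term. In Dnmt3a KO minus Rosa KO with no run term Cd79a was at -1.05, Cd79b -0.75, Ms4a1 -0.40, Cd74 -0.34, H2-Aa -0.89, Ebf1 -0.54 and Blnk -0.042. With the replicate block in place of run they were -0.82, -0.66, -0.39, -0.27, -0.73 and -0.053 for the first 6. Bank1 was 0.27 with the block and run and 1.38 with only those groups. Without Tet2 KO 1 and 2 together Ms4a1 was -0.066 and Cd74 -0.034. In Tet2 KO minus Rosa KO Blnk was -0.024 with DESeq2 size factors, -0.037 with library totals, -0.026 in DESeq2 and -0.14 with no run term, where Cd79a was -0.17, Cd79b -0.21, Cd74 -0.15 and H2-Aa -0.093. With the block in place of run these 4 were -0.16, -0.17, -0.16 and -0.14, and Pax5 was 0.049 without both Tet2 KO libraries of run 2.

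Leaving out each library in turn, the 9 comparisons of the first model kept 0 calls. The counts that follow have no share of all genes called beside them here. Whether they are particular to the 9 genes cannot be read from them. Counts ranged from 0 to 1, 0 to 7 and 0 to 5 in run 1 (Asxl1 KO minus Rosa KO, Dnmt3a KO minus Rosa KO, Asxl1 KO minus Dnmt3a KO), 0 to 8 and 0 to 9 in run 2 (Asxl1 KO and Dnmt3a KO minus Tet2 KO), and 0 to 9 and 0 to 8 in run 3 (Asxl1 KO minus Rosa KO and minus Tet2 KO), and from 0 to 7, 0 to 1 and 0 to 9 for the changes between runs; each call came without Tet2 KO 1 or Tet2 KO 2. In run 2 alone both counts ranged from 0 to 6. Medians ranged from -1.08 to 3.35 and -0.71 to 3.56 in run 2, -1.09 to 3.36 and -0.73 to 3.57 in run 2 alone, and -5.36 to -0.83 for Asxl1 KO minus Tet2 KO between runs 3 and 2. Single values that changed sign in this way ranged, in Dnmt3a KO minus Rosa KO, from -0.66 to 1.03 (Cd79a), -0.74 to 1.06 (Cd79b), -0.82 to 0.88 (Ms4a1), -0.39 to 0.92 (Cd74), -0.20 to 1.05 (H2-Aa), -0.27 to 1.39 (Ebf1), -0.28 to 1.05 (Pax5) and -1.02 to 0.30 (Bank1). In Tet2 KO minus Rosa KO they ranged from -0.10 to 0.53 (Cd79a), -0.20 to 0.49 (Cd79b), -0.17 to 0.43 (Cd74), -0.11 to 0.52 (H2-Aa) and -0.32 to 0.46 (Blnk), in Asxl1 KO minus Rosa KO from -1.22 to 0.012 (Pax5), and in Tet2 KO minus Rosa KO of run 3 alone from -0.021 to 0.095 (Cd79b). Depth is no limit for the 9 genes, whose counts in a library were 51 or more, and with 1 Rosa KO library in run 1 the group cannot be told apart from that library.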
